A study of Mus musculus with 7 samples.

Results

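The 8 genes that code for the constant regions of the mouse T-cell receptor (TCR) chains were followed across 7 single-cell RNA libraries of double-negative (DN) thymocytes: Trbc1 and Trbc2 (TCRβ), Trac (TCRα), Tcrg-C1, Tcrg-C2, Tcrg-C3 and Tcrg-C4 (TCRγ) and Trdc (TCRδ). They were found by symbol among the 32286 features of the tables. Each library was made from 1 sorted subset of thymi pooled from several mice, depleted of CD4 and CD8 cells in the case of WT, and spiked with 500 splenic B lymphocytes. Of the 7, the WT subsets came from C57BL/6 mice 6 to 8 weeks old. DN3a cells were sorted as not yet selected through a TCR. The αβ branch was sampled as DN3b γδ- and DN4 γδ- cells, and the γδ branch as DN3b γδ+ and DN4 γδ+ cells. The other 2 subsets, Lat-KO DN3 γδ- and Lat-KO DN3 γδint, came from C57BL/6 mice of genotype Lat-/-TCRd-H2BEGFP, which lack the LAT adaptor of TCR signalling and carry a fluorescent reporter inserted at Trdc. The reporter is thus shared by the Lat-KO libraries and absent from all WT libraries, so that for Trdc the allele and the genotype cannot be told apart. The age of the Lat-KO mice was not given and may differ from that of WT. In what follows the WT libraries are named by their sort alone (DN3a to DN4 γδ+) and the mutant ones as Lat-KO γδ- and Lat-KO γδint.

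A TCR chain is made of a variable part, assembled in each thymocyte by joining V, D and J gene segments, and of a constant region that holds the chain in the membrane and pairs it with its partner chain and the CD3 subunits. The β and γ chains can each use more than 1 constant gene because each constant gene sits behind its own J segments, whereas the α and δ chains have 1 constant gene each. Constant genes can also be transcribed from loci that have not been rearranged, or not productively, and a 3' count of a constant gene does not tell these transcripts from those that code for a chain. β, γ and δ loci rearrange at the DN2 and DN3 stages. The α locus encloses the δ genes and is classically rearranged only after the DN stage.

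The genes of a family are close copies, which bears on how their reads were assigned. In the GENCODE vM21 annotation (GRCm38, the same assembly as mm10), Trbc1 (ENSMUSG00000076490) and Trbc2 (ENSMUSG00000076498) lie on the plus strand of chromosome 6, from 41538218 to 41539881 and from 41546730 to 41548352. Their coding exons are 518 bases long and identical at 495 of them (95.6%). The last 120 coding bases are shown because they hold 19 of the 23 differences and lie near the 3' end that the libraries capture, with capitals at the bases of Trbc2 that differ from Trbc1.
Trbc1: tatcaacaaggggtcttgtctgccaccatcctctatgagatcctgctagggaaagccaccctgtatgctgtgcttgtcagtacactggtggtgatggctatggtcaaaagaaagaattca
Trbc2: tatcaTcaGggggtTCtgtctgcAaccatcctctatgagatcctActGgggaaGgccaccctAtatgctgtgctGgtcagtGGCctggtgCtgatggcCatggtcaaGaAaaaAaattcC

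The γ genes lie on chromosome 13: Tcrg-C1 (ENSMUSG00000076749) from 19214103 to 19217024, Tcrg-C3 (ENSMUSG00000091682) from 19260884 to 19263528 and Tcrg-C4 (ENSMUSG00000076757) from 19344558 to 19352756 on the plus strand, and Tcrg-C2 (ENSMUSG00000076752) from 19304649 to 19307551 on the minus strand. Over the aligned coding bases Tcrg-C1 was 97.4% identical to Tcrg-C2 and 96.8% identical to Tcrg-C3, whereas Tcrg-C4 was 77.3% identical to Tcrg-C1. The last 120 coding bases of 3 of them show this contrast, with capitals at bases that differ from Tcrg-C1 in the alignment, 3 in Tcrg-C2 and 40 in Tcrg-C4.
Tcrg-C1: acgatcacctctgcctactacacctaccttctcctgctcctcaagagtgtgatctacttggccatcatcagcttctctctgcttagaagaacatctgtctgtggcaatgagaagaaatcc
Tcrg-C2: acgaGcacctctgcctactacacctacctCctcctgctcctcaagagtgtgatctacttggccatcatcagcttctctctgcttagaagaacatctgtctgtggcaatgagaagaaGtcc
Tcrg-C4: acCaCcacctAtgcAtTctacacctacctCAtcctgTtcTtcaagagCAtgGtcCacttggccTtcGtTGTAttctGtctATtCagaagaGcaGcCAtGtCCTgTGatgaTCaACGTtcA

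Stretches of 57 bases, the length of the sequenced cDNA read, gave the extent to which a read could come from more than 1 gene. Of the 681 such stretches of the longest Trbc1 transcript, 269 (39.5%) were also present in Trbc2, all of them in the coding part and none in the 163 stretches that follow it. Tcrg-C1 shared 13.6% of its stretches with Tcrg-C2 and 14.3% with Tcrg-C3, and Tcrg-C4 shared none with Tcrg-C1, Tcrg-C2 or Tcrg-C3. A read that falls in a shared stretch cannot be assigned to 1 gene. This bears on the split between Trbc1 and Trbc2 and among Tcrg-C1, Tcrg-C2 and Tcrg-C3, but not on the count of Tcrg-C4. Where such reads are left uncounted, they are missing from the sum of the family as well. Trdc (ENSMUSG00000104876; 54142851 to 54148868) and Trac (ENSMUSG00000076928; 54220521 to 54224206) lie on the plus strand of chromosome 14.

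The 7 libraries held 90016 barcodes, of which 79076 passed the quality limits and 71081 had at most 1 UMI (unique molecular identifier, counted as 1 mRNA molecule) of the B-cell genes Cd79a, Cd79b and Ms4a1 and were taken as thymocytes (5274 to 18515 per library, 37820685 to 338698944 UMIs). Another 1090 barcodes (115 to 257 per library) were the spiked-in B cells, which do not express TCR genes and gave the background from free RNA. The remaining 6905 fell between these limits and were not used. Their share was uneven, from 560 of 13617 in DN4 γδ- to 1052 of 6474 in Lat-KO γδint and 1416 of 8071 in Lat-KO γδ-. Cd79b measured 40.9 to 49.3 UMIs per 1000000 in thymocyte barcodes of DN3a and Lat-KO, and 8.65 to 22.1 in the others. The effect of leaving these barcodes out was not tested. Median depth ranged from 5738 UMIs per thymocyte barcode in Lat-KO γδint to 18506 in DN4 γδ-. In B-cell barcodes it was lower, from 2420 UMIs in DN3b γδ- to 3696 in DN3b γδ+. If droplets hold similar numbers of free UMIs, these make up a larger share of a B-cell barcode than of a thymocyte barcode. B-cell levels in CPM, and their subtraction, can therefore overstate the background in thymocytes. The summed level of DN3-stage markers was 1498 CPM (UMIs per 1000000 UMIs) in DN3a, 2045 and 2084 in Lat-KO, 196 and 145 along the γδ- branch and 41.3 and 6.32 along the γδ+ branch. Single markers did not all follow the stage: Il2ra, the CD25 gene that defines DN3 cells, measured 97.1 CPM in DN3b γδ- and 12.1 in DN4 γδ-, but Rag1 36.2 and 70.1 and Ptcra 63.1 and 63.3. Cd4 reached at most 1.13 CPM in any library. Cd8b1 measured 98.8 CPM in DN4 γδ-, and the summed level of erythroid markers was 169.6 CPM there and 0.149 to 35.7 CPM elsewhere; their part in the results for that library was not tested. Lat measured between 357 and 648 CPM in the WT libraries, 4.83 in Lat-KO γδ- and 0.899 in Lat-KO γδint. The share of UMIs from ribosomal-protein genes was 18.2% in Lat-KO γδint and between 27.7 and 33.7% in the other 6 libraries, and it was as low in the B cells of that library (19.9%). With 1 library per subset there was no replicate, so no test was made, and the 95% intervals given for levels (exact Poisson), shares (Clopper-Pearson) and ratios (exact conditional binomial) cover counting error only. Because 925 of the barcode sequences (1.04%) occurred in 2 or more libraries, libraries were always treated apart.

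The β genes were transcribed at every stage and in both branches, with the highest CPM in DN4 γδ+ cells, which carry a γδ TCR at their surface. Trbc1 measured 1364 CPM in DN3a cells, 1281 and 1505 in the γδ- cells of DN3b and DN4, 1845 and 2740.0 in the γδ+ cells of DN3b and DN4, and 879 and 1031 in the Lat-KO γδ- and γδint cells. Trbc2 measured 2013, 2133, 2464, 2538, 3147, 1573 and 1783 CPM in the same order. The rank of the libraries was DN4 γδ+, DN3b γδ+, DN4 γδ-, the pair of DN3a and DN3b γδ-, Lat-KO γδint and Lat-KO γδ- for both genes, with DN3a above DN3b γδ- for Trbc1 and below it for Trbc2, and no neighbours in this order had overlapping counting intervals. The order rests on CPM: under TMM scaling, described with the comparisons, the log2 ratio of Trbc2 in DN4 γδ+ was 0.01 over DN3b γδ+ and 0.01 over DN4 γδ-, so these 3 libraries were level. TMM also turned Trbc1 in DN3b γδ- over DN3a (-0.09 to 0.27) and, in Lat-KO γδint over Lat-KO γδ-, Trbc1 (0.23 to -0.02) and Trbc2 (0.18 to -0.07), so the order of these pairs did not hold. The B cells of each library held 31.4 to 426 CPM of Trbc1, which was between 3.58% (Lat-KO γδ-) and 28.2% (DN4 γδ-) of the thymocyte level.

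Trac was low everywhere and covered the widest range of the 8 genes. It measured 1.14 CPM (95% interval 0.868 to 1.46, 61 UMIs) in DN3a cells, 5.34 and 15.9 in γδ- cells at DN3b and DN4, and 39.3 and 77.1 (75.1 to 79.2) in γδ+ cells at these stages. The Lat-KO libraries held 10 and 20 Trac UMIs in all, or 0.199 CPM (0.0953 to 0.366) in γδ- and 0.529 (0.323 to 0.817) in γδint, and these intervals overlapped. Trac was therefore higher in the γδ branch than in the αβ branch at each stage, and higher at DN4 than at DN3b within each branch. In DN4 γδ+, 23.9% of barcodes held a Trac UMI at a common depth of 4000 UMIs, and 2.35% of those with Trac and 2.35% of those without it held Cd8b1, a coreceptor gene of the αβ path. In DN4 γδ- these shares were 28.2 and 28.1%. None of the 57 B cells of DN4 γδ+ at this depth held Trac, which allows a share of up to 5.26% (3 counts). The B cells of DN3b γδ+ held 5 Trac UMIs (10.5 CPM, 26.7% of the thymocyte level), those of DN4 γδ- 1 UMI (2.33 CPM, 14.6%), and those of the other 5 libraries none.

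By CPM the γ genes were highest in both Lat-KO subsets and lowest in the αβ branch. The order of Lat-KO γδint and the γδ+ libraries depended on the scaling, as the ratios given with their comparison show. Tcrg-C1 measured 472 CPM in DN3a cells, 196 and then 70.1 along the γδ- branch, 299 and then 429 along the γδ+ branch, and 686 and 521 in the Lat-KO γδ- and γδint cells. Tcrg-C2 measured 689.6, 267, 144, 473, 546, 1007 and 753 CPM in this order, and Tcrg-C4 301, 150.3, 56.6, 313, 439, 511 and 495 CPM. All 3 genes were highest in Lat-KO γδ- and lowest in DN4 γδ-, where the B cells held 18.7 CPM of Tcrg-C1, 35 of Tcrg-C2 and 4.66 of Tcrg-C4. Tcrg-C4 differed from Tcrg-C1 and Tcrg-C2 in the place of DN3a, which by CPM ranked below both γδ+ subsets for Tcrg-C4 and above them for the other two. For Tcrg-C4 the place of DN3a against DN3b γδ+ (log2 ratio of DN3b γδ+ over DN3a 0.06) turned when scaled without ribosomal-protein and mitochondrial genes (-0.12) and with the B-cell level subtracted (-0.09).

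Tcrg-C3 stayed between 0.279 CPM (DN4 γδ-, 68 UMIs) and 4.39 CPM (Lat-KO γδ-, 221 UMIs). Its 3 highest libraries, Lat-KO γδ-, Lat-KO γδint (4.28) and DN4 γδ+ (3.44), had counting intervals that overlapped between neighbours in the order. The gene shared 20.9% of its 57-base stretches with Tcrg-C1, and reads of Tcrg-C1 could not be told from it there.

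Trdc was highest in the γδ+ libraries, as was Trac. It measured 311 CPM in DN3a cells, 201 and 222 in γδ- cells of DN3b and DN4, but 1016 and 1844 in γδ+ cells of DN3b and DN4. At 4000 UMIs per barcode the median was 4 Trdc UMIs in DN3b γδ+ and 8 in DN4 γδ+, but 1 in DN3a and DN4 γδ- and 0 in DN3b γδ-. The per-barcode values overlapped: the highest 5% of DN3a barcodes held 5 or more Trdc UMIs, and the lowest 25% of DN3b γδ+ barcodes held 2 or fewer. The B cells carried 18.5, 25.8, 65.3, 233 and 159 CPM of Trdc in these 5 libraries, so that between 5.96 and 29.3% of the thymocyte level was met in cells that do not express the gene.

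In the Lat-KO libraries Trdc reads were divided between the Trdc feature and a feature for the reporter allele, which the study added to the reference. Trdc alone measured 24 CPM in Lat-KO γδ- and 36.3 in Lat-KO γδint, and the reporter feature 30.5 and 44.2. The 5 WT libraries held 0 to 3 UMIs of the reporter feature each. The sum, used as Trdc from here on, was 54.5 CPM (52.4 to 56.5) in Lat-KO γδ- and 80.5 (77.6 to 83.4) in Lat-KO γδint, below every WT library. At 4000 UMIs, 1.8% of Lat-KO γδ- barcodes and 3.06% of Lat-KO γδint barcodes held UMIs of both features, beside products of the single shares of 1.04 and 2.17%. The part of the altered 3' end of the gene in these low values was not tested.

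**Figure D1:**
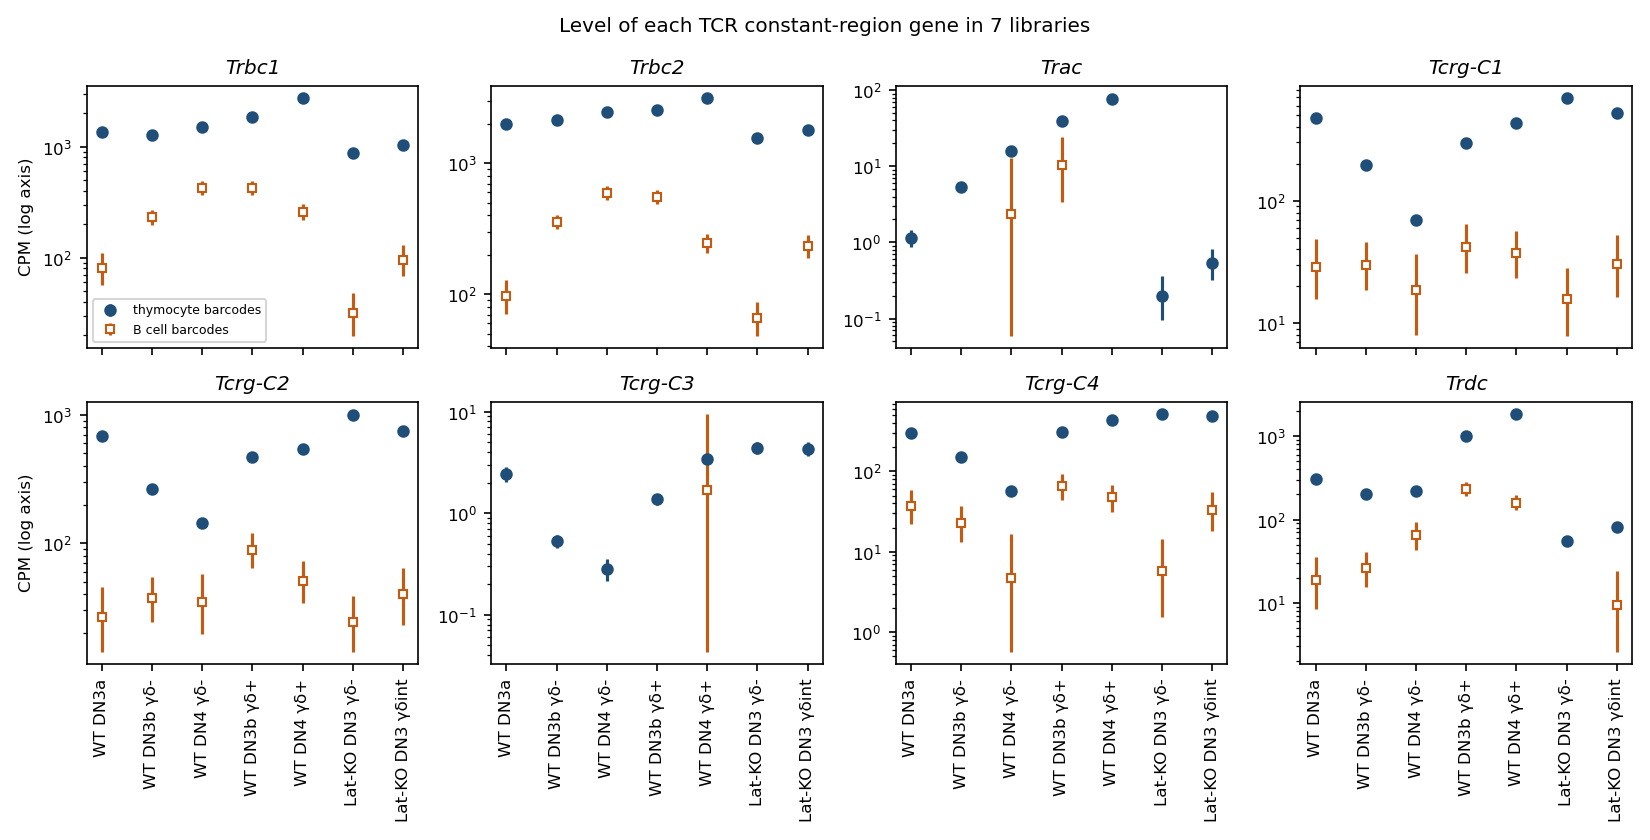
Level of each of the 8 constant-region genes (CPM, log axis) in the 7 libraries, for thymocyte barcodes (filled circles) and spiked-in B cell barcodes (open squares, not drawn where the count was 0); bars are 95% Poisson intervals. Trdc spanned 201 CPM (WT DN3b γδ-) to 1844 CPM (WT DN4 γδ+) among the WT libraries, while the γ genes were lowest in WT DN4 γδ-.

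The genes with the most similar profile over the 7 libraries, among 7030 genes that reached 20 CPM in at least 1 library, were found by the root-mean-square difference of centred log2(CPM + 1) values. Tcrg-C1 and Tcrg-C2 differed from each other by 0.20 and from Tcrg-C4 by 0.25 and 0.33. The nearest gene to Tcrg-C1 and to Tcrg-C2 outside the family was Ccnd2, the cyclin D2 gene (0.17 and 0.15), followed by Arid5a (0.28) and Ipcef1 (0.30) for Tcrg-C1 and by Dock10 (0.19) and Foxn3 (0.20) for Tcrg-C2. Tcrg-C4 was nearest to Cd82 (0.22), Bin1 (0.26) and Tnik (0.29). Trbc1 and Trbc2 differed by 0.21 from each other; Trbc1 was nearest to Psd4 (0.15), Rap2c (0.18) and Cyba (0.19), and Trbc2 to Ero1l (0.08), Lrrc8c (0.10) and Atp1b3 (0.10). Trac was nearest to Cd2 (0.48), a T-cell adhesion receptor, Ikzf3 (0.66) and Rapsn (0.68), and Trdc to Gpr146 (0.53), Auts2 (0.53) and Nab2 (0.56). With 7 libraries and 7030 genes, such matches are a description only.

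Comparisons between libraries used a limit of 2-fold and were set beside the same count over the 9100 genes with a mean of at least 5 CPM. Tcrg-C3 fell below that mean and is left out of these counts, and Trac passed it through the γδ+ libraries. Hence the counts are of 7 genes. Because Trac had to differ to pass, the counts were also made without it: in the order in which the 9 comparisons follow, 3, 1, 2, 2, 0, 4, 1, 0 and 1 of 6 genes were past 2-fold. The medians without Trac were -0.81, 0.20, 0.72, -0.37, 0.51, 2.27, 0.09, 0.07 and 0.08, which for DN4 γδ- over DN3b γδ-, Lat-KO γδ- over DN3a and Lat-KO γδint over DN3b γδ+ differ in sign from the medians of the 7 genes. The libraries compared differed in cell-cycle state: at 4000 UMIs, barcodes with at least 3 UMIs of 10 cycling genes made up 1.64% of DN3a, 82.8% of DN3b γδ-, 82.3% of DN4 γδ-, 71.1% of DN3b γδ+, 17.1% of DN4 γδ+, 5.13% of Lat-KO γδ- and 22.7% of Lat-KO γδint.

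From DN3a to DN3b γδ-, the step of β-selection, the γ genes fell and Trac rose. Past 2-fold were 4 of the 7 genes, beside 26.6% of all genes: Tcrg-C1 (log2 ratio -1.26, interval -1.29 to -1.24), Tcrg-C2 (-1.37), Tcrg-C4 (-1.0) and Trac (2.23). Trdc fell by 0.62 on the log2 scale and Trbc1 and Trbc2 moved by -0.09 and 0.08. The median of the 7 genes was -0.62 and that of all genes -0.11. TMM scaling, which sets the bulk of genes level, moved all ratios of this comparison up by 0.36 and left Tcrg-C2 (-1.01) and Trac past the limit, with Tcrg-C1 at -0.90 and Tcrg-C4 at -0.64. It turned Trbc1 (0.27), and subtraction of the B-cell level turned Trbc2 (-0.11), so neither β gene had a direction here that held under both.

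From DN3a to DN3b γδ+, the step of γδ-selection, Trdc and Trac rose. These were the 2 of the 7 genes past 2-fold (Trdc 1.71, interval 1.69 to 1.73; Trac 5.11, interval 4.75 to 5.50), beside 25.7% of all genes. Tcrg-C1 and Tcrg-C2 measured -0.66 and -0.55, Tcrg-C4 0.06 (-0.12 when scaled without ribosomal-protein and mitochondrial genes), and Trbc1 and Trbc2 0.44 and 0.33. The median was 0.33 for the 7 genes and -0.11 for all genes.

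Between the branches at DN3b, Trdc, Trac and Tcrg-C4 were higher in the γδ+ library. These were 3 of the 7 genes, beside 7.99% of all genes: Trdc 2.33 (interval 2.32 to 2.35), Trac 2.88 and Tcrg-C4 1.06 (interval 1.04 to 1.08). Tcrg-C2 measured 0.83, Tcrg-C1 0.61, Trbc1 0.53 and Trbc2 0.25, so all 7 genes lay above 0, with a median of 0.83 beside -0.04 for all genes. With the B-cell level of each library subtracted, Tcrg-C4 measured 0.96, under the limit. Scaling without ribosomal-protein and mitochondrial genes also put Tcrg-C4 under it.

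Later in the αβ branch Tcrg-C1 and Tcrg-C4 fell further. From DN3b γδ- to DN4 γδ-, Tcrg-C1 (-1.49, interval -1.51 to -1.46) and Tcrg-C4 (-1.41) fell past 2-fold and Trac rose (1.58), 3 of the 7 genes beside 2.19% of all genes. Tcrg-C2 measured -0.88. Trdc (0.14), Trbc1 (0.23) and Trbc2 (0.21) moved little, and the median was 0.14 beside -0.12 for all genes. Thus by CPM Trdc stayed at about the same level in the αβ branch while the γ genes fell. The B cells of DN4 γδ- held 29.3% of its Trdc level in CPM, and with the B-cell level of each library subtracted the ratio was -0.16. As B-cell barcodes were shallower, this subtraction can take off too much, so the direction of Trdc here was not settled.

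In the γδ branch none of the 7 genes moved past 2-fold from DN3b γδ+ to DN4 γδ+, beside 17.7% of all genes. Trac (0.97), just under the limit, and Trdc (0.86) moved the most, followed by Trbc1 (0.57), Tcrg-C1 (0.52), Tcrg-C4 (0.49), Trbc2 (0.31) and Tcrg-C2 (0.21). The median was 0.52 beside 0.10 for all genes. TMM scaling lowered these ratios by 0.30 and put Tcrg-C2 at -0.10, whereas subtraction of the B-cell level put Trac (1.42) and Trdc (1.11) past the limit. At DN4, γδ+ over γδ-, 5 of the 7 genes were past 2-fold, all higher in γδ+, beside 26.7% of all genes: Trdc 3.05, Tcrg-C4 2.95, Tcrg-C1 2.61, Trac 2.27 and Tcrg-C2 1.92. Trbc1 measured 0.86 (1.20, past the limit, with the B-cell level subtracted) and Trbc2 0.35, and the median was 2.27 beside 0.18 for all genes.

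Lat-KO γδ- cells, set against DN3a cells, had lower Trdc and Trac and somewhat higher γ genes. Trdc (-2.51, interval -2.57 to -2.45) and Trac (-2.51, interval -3.64 to -1.54) were the 2 of the 7 genes past 2-fold, beside 4.31% of all genes. Tcrg-C4 measured 0.77, Tcrg-C1 0.54, Tcrg-C2 0.55, Trbc1 -0.63 and Trbc2 -0.36, with a median of -0.36 beside 0.23 for all genes. The allele at Trdc differed between these libraries, and Trac lies behind Trdc on the same strand. For Trac, as for Trdc, the part of the allele was not tested and cannot be told apart from that of the genotype.

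Within the Lat-KO genotype, where the reporter allele is shared, γδint cells differed little from γδ- cells. Trac (1.41, interval 0.25 to 2.67, from 10 and 20 UMIs) was the 1 of 7 genes past 2-fold, beside 8.43% of all genes, and it was no longer past it among barcodes without any B-cell marker UMI. Trdc measured 0.56 (interval 0.49 to 0.64), Tcrg-C1 -0.40, Tcrg-C2 -0.42, Tcrg-C4 -0.05, Trbc1 0.23 and Trbc2 0.18, with a median of 0.18 beside 0.20 for all genes. TMM scaling put Trdc at 0.31 and turned Trbc1 (-0.02) and Trbc2 (-0.07), and scaling without ribosomal-protein and mitochondrial genes also turned Trbc2 (-0.02). Against DN3b γδ+ cells, Lat-KO γδint cells were lower in Trdc (-3.66, interval -3.71 to -3.61) and Trac (-6.22), 2 of the 7 genes beside 34.2% of all genes. Tcrg-C1 (0.80), Tcrg-C2 (0.67) and Tcrg-C4 (0.66) were above WT and Trbc1 (-0.84) and Trbc2 (-0.51) below it, with a median of -0.51 beside 0.55 for all genes. TMM moved this comparison by -0.74, which put Trbc1 (-1.58) and Trbc2 (-1.25) past the limit and the γ genes between -0.08 and 0.06, so that their direction here depended on the scaling.

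**Figure D2:**
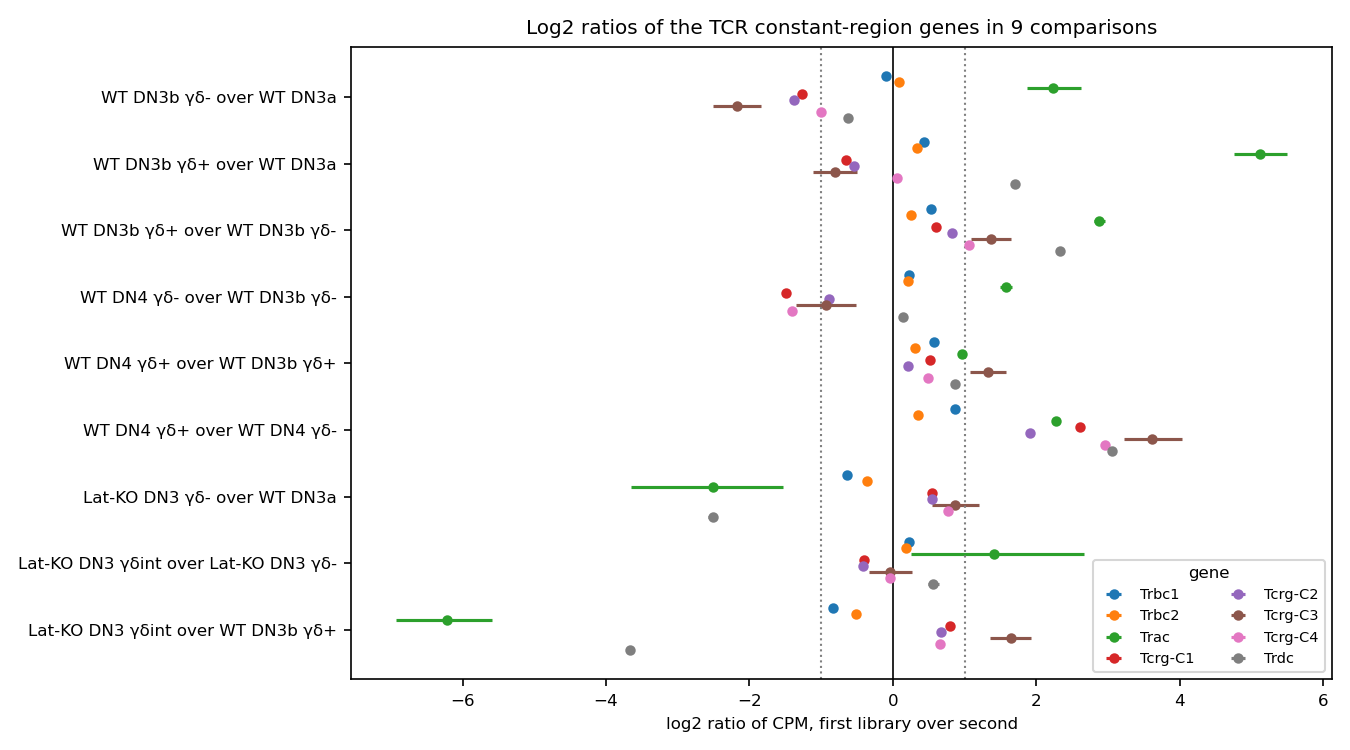
Log2 ratio of CPM (first library over second) of each constant-region gene in 9 comparisons; bars are 95% counting intervals and dotted lines mark 2-fold. The γ genes lay left of 0 in the steps of the αβ branch, and Trac and Trdc were far left in the comparisons of Lat-KO with WT; under TMM scaling Trbc1 turned in WT DN3b γδ- over WT DN3a, Tcrg-C2 in WT DN4 γδ+ over WT DN3b γδ+, Tcrg-C2 and Tcrg-C4 in Lat-KO DN3 γδint over WT DN3b γδ+, and the β genes in the comparison within Lat-KO.

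Genes that act with these chains were followed as a list of 9: the CD3 subunits (Cd3d, Cd3e, Cd3g, Cd247), the surrogate α chain of the pre-TCR (Ptcra), the recombinase and its nucleotide-adding partner (Rag1, Rag2, Dntt) and Lat. Ptcra and Rag1 are also among the DN3-stage markers, so their fall after DN3a came with the choice of list. The counts that follow stand beside 26.6, 25.7, 7.99, 2.19, 17.7, 26.7, 4.31, 8.43 and 34.2% of all genes past 2-fold, in the order of the comparisons. In DN3b γδ- over DN3a, 5 of the 9 fell past 2-fold and none rose: Rag1 (-3.67), Ptcra (-2.72), Rag2 (-2.30), Cd3g (-2.13) and Cd3d (-1.84). In DN3b γδ+ over DN3a, 6 fell and none rose, with Rag1 at -7.11 and Ptcra at -5.81; Cd3g (-1.14) was under the limit with TMM (-0.81). Between the branches at DN3b, Ptcra (-3.09), Rag1 (-3.44), Rag2 (-3.65) and Dntt (-2.08) were lower in γδ+ and Cd247, the CD3ζ gene, was higher (1.21). None of the 9 moved past 2-fold from DN3b γδ- to DN4 γδ-, and 4 did from DN3b γδ+ to DN4 γδ+ (Ptcra, Rag1 and Rag2 lower, Cd247 higher by 1.10, but 0.80 under TMM). At DN4, 6 of the 9 differed between the branches, Cd3d (1.22, but 0.88 under TMM) and Cd247 (2.34) being higher and Ptcra, Rag1, Rag2 and Dntt lower in γδ+. Lat-KO γδ- differed from DN3a in Lat alone among the 9 (-7.07), and Lat-KO γδint from Lat-KO γδ- likewise (-2.43), with Cd3d just inside the limit (-0.99) and past it under TMM (-1.24). Lat-KO γδint exceeded DN3b γδ+ in 6 of the 9, with Rag1 at 7.39 and Ptcra at 6.92, values that moved by -0.74 under TMM, which left Cd3e (0.42) and Cd3g (0.64) under the limit. Lat was lower (-8.74). The RNA of the recombinase thus fell while that of Trbc1, Trbc2 and Trdc did not fall with it in the γδ branch.

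Cells were next examined for TCR chains detected together, with each barcode thinned to 4000 UMIs. Barcodes below that depth were left out, between 4.55% of thymocyte barcodes in DN3b γδ- and 20.3% in DN4 γδ+. A UMI of Trdc together with one of Trbc1 or Trbc2 was found in 53.2% of DN3a barcodes (52 to 54.4%), 47.8% of DN3b γδ- (47.1 to 48.5%), 50.5% of DN4 γδ- (49.6 to 51.4%), 94.5% of DN3b γδ+ (94.1 to 94.9%) and 98.5% of DN4 γδ+ (98.2 to 98.8%). In Lat-KO γδ- and γδint the shares were 17.9 and 25.7%. Almost every thymocyte barcode (95.8 to 99.9%) held a β UMI, so these shares followed that of Trdc. The products of the single shares were 52.9, 47.8, 50.5, 94.5 and 98.5% in the WT libraries and 17.9 and 25.8% in the Lat-KO libraries. The 23 to 57 B cells per library at this depth held the pair in 4.76, 6.67, 22.2, 56, 26.3, 0 and 0% of barcodes in the order of the libraries, where 0 of 49 and 0 of 23 barcodes allow a share of up to 6.12 and 13.0% by a floor of 3 counts (Clopper-Pearson upper bounds 7.25 and 14.8%). Without thinning the pair was in 66.1, 80, 80.5, 97.7, 96.4, 29.3 and 38.1% of thymocyte barcodes.

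By the presence of a UMI in a barcode, the αβ and γδ branches differed in γ, δ and α. A β UMI was in almost every barcode of both branches, so its presence could not set them apart. An α UMI was found in 1.98% of DN3b γδ- and 6.22% of DN4 γδ- barcodes, beside 13.9% of DN3b γδ+ and 23.9% of DN4 γδ+. A γ UMI was found in 96.4% of DN3a barcodes, 85.8% of DN3b γδ- and 55.7% of DN4 γδ-, and in 96.6% of DN3b γδ+ and 98.1% of DN4 γδ+. Barcodes with β alone made up 1.97% of DN3a, 7.84% of DN3b γδ- and 20.8% of DN4 γδ-. The combination β+γ+δ made up 51.3% of DN3a, 78.4% of DN3b γδ+ and 73.6% of DN4 γδ+, and all 4 chains were found together in 13% of DN3b γδ+ and 23.2% of DN4 γδ+. The shares with all 4 followed those with an α UMI (13.9 and 23.9%), since most barcodes of these libraries held β, γ and δ. In the Lat-KO libraries β+γ was the main combination, with 76.8% of γδ- and 69.7% of γδint barcodes. The β share in B cells reached 100% (27 of 27) in DN4 γδ- and 100% (50 of 50) in DN3b γδ+, so in these libraries the presence of a β UMI in a barcode did not set thymocytes apart from the background, and only its level did.

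**Figure D3:**
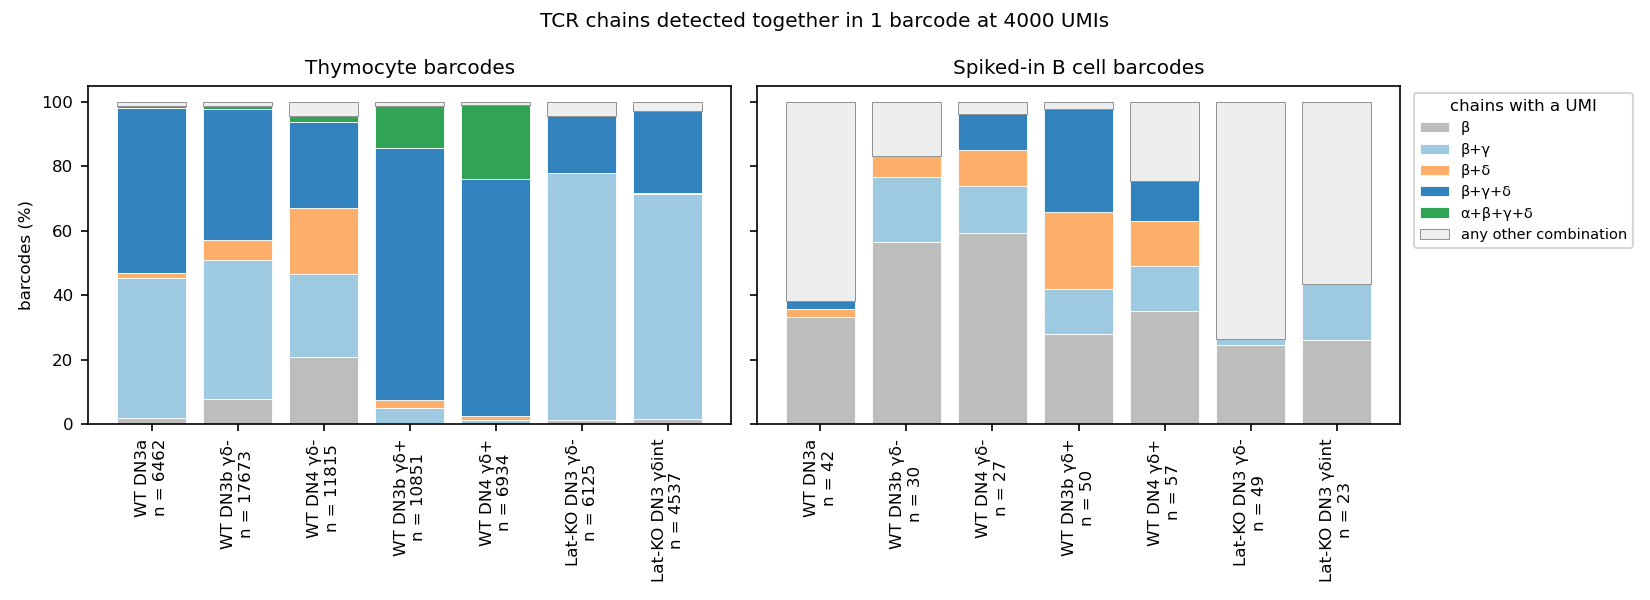
Share of barcodes (%) with UMIs of the β, γ, δ and α constant genes in each combination, at 4000 UMIs per barcode, for thymocytes (left) and spiked-in B cells (right); n is the number of barcodes and the palest segment is every other combination. β+γ+δ made up 78.4 and 73.6% of the WT DN3b γδ+ and WT DN4 γδ+ thymocytes and β+γ 76.8 and 69.7% of the Lat-KO thymocytes.

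Trbc1 and Trbc2 were mostly found in the same barcode. The shares that follow used all UMIs of a barcode, without thinning. Of the barcodes with at least 10 Trbc UMIs (2918 to 17601 per library), 90% or more of the UMIs came from a single gene in 18.1% (17 to 19.1%) of DN3a, 26.2% of DN3b γδ-, 27.1% of DN4 γδ-, 16.4% of DN3b γδ+, 18.5% of DN4 γδ+, 24% of Lat-KO γδ- and 26.6% of Lat-KO γδint. These were nearly all barcodes with Trbc2: at least 90% Trbc2 was met in 16.2 to 27% of barcodes and at least 90% Trbc1 in 0.108 to 1.2%. The asymmetry held in all 7 libraries. Barcodes with between 20 and 80% Trbc1 made up 58.9 to 70.9%. DN4 γδ+ stood out in the upper end of the range, with 7.18% of barcodes at 80% Trbc1 or more (6.59 to 7.8%), beside 1.36 to 3.05% in the other libraries. As free RNA of either gene enters each droplet, the 90% limit can be missed by a cell that transcribes 1 gene. Reads in the 269 shared 57-base stretches cannot be assigned to either gene. The part of free RNA and of such reads in these shares was not tested. With at least 20 Trbc UMIs, the shares at the 90% limit were 14.9, 25.4, 27.0, 16.4, 17.1, 16.7 and 18.4% in the same order of libraries. The Lat-KO shares, near those of the γδ- branch at 10 UMIs, were then near those of the γδ+ branch. At 10 UMIs the median was 24 and 26 Trbc UMIs in Lat-KO γδ- and γδint, and 57 and 72 in DN3b γδ- and DN4 γδ-.

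**Figure D4:**
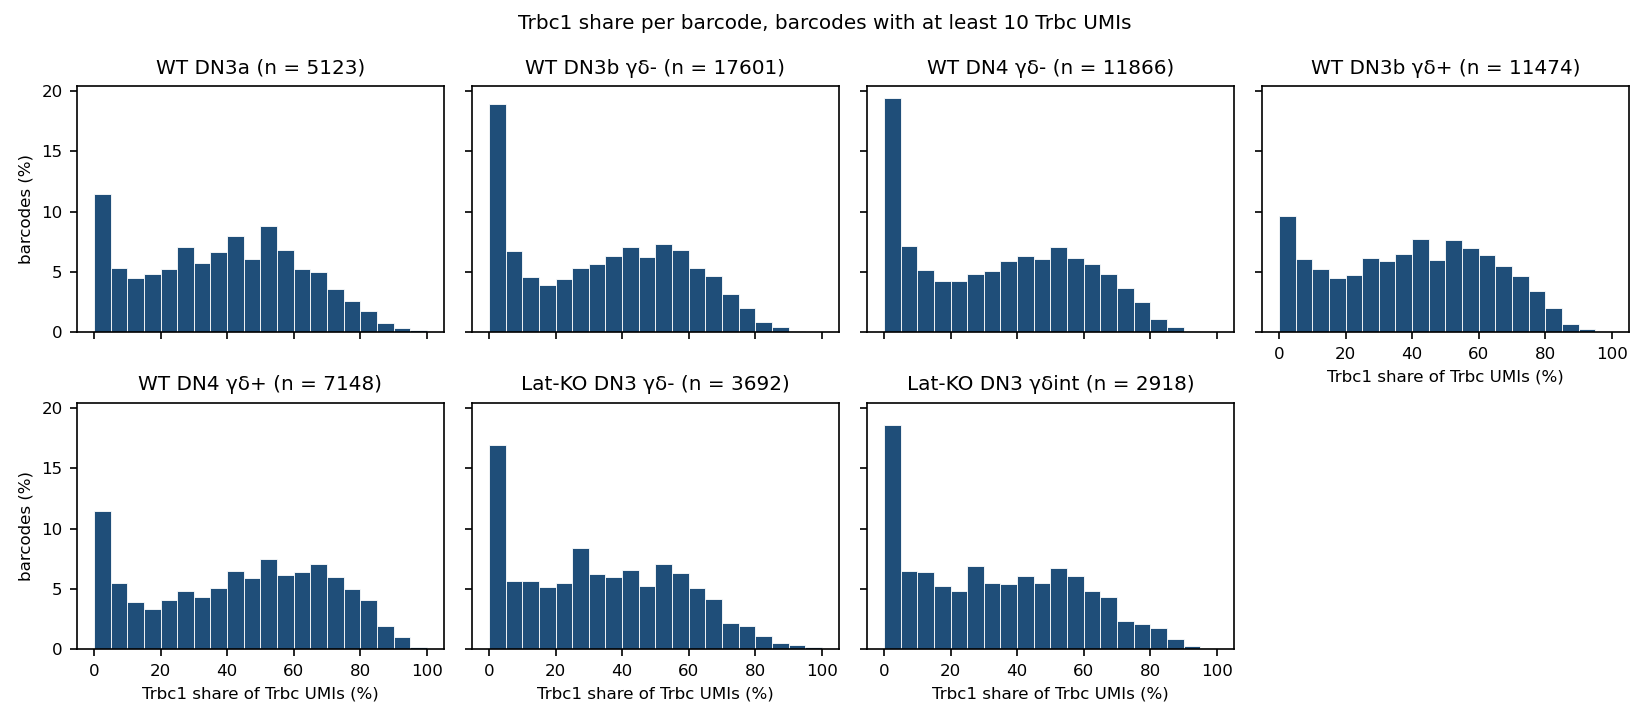
Share of Trbc UMIs that came from Trbc1 in each barcode (%, bins of 5) in barcodes with at least 10 Trbc UMIs; bars give the percentage of barcodes of the library. A peak at 0 to 5% Trbc1, of 9.67 to 19.5% of barcodes, stood beside a broad distribution with few barcodes above 90%.

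The γ genes were likewise detected together. At 4000 UMIs, Tcrg-C1, Tcrg-C2 and Tcrg-C4 were all present in 38.5% of DN3a barcodes, 15.1% of DN3b γδ-, 3.88% of DN4 γδ-, 33.8% of DN3b γδ+, 45% of DN4 γδ+, 60.4% of Lat-KO γδ- and 56.7% of Lat-KO γδint. Barcodes with at least 10 Tcrg-C UMIs were also read without thinning. Among them, 80% or more came from Tcrg-C2 in 1.42 to 9.3%, from Tcrg-C1 in 0.308 to 0.698% and from Tcrg-C4 in 0.0531 to 1.17%. Most barcodes with enough γ UMIs therefore held UMIs of more than 1 constant gene. At 4000 UMIs a γ UMI was also found in 23.8 to 48% of the WT B cells, and in 6.12 and 34.8% of those of Lat-KO γδ- and γδint. The part of free RNA and of the shared stretches in the shares of this paragraph was not tested.

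The composition of the γ UMIs shifted towards Tcrg-C4 in the γδ branch. Tcrg-C4 made up 20.5% of the Tcrg-C UMIs in DN3a cells (20.2 to 20.8%) and 24.5 and 20.9% in γδ- cells at DN3b and DN4. It made up 28.8 and 31% (30.7 to 31.3%) in γδ+ cells at these stages, and 23.2 and 27.9% in Lat-KO γδ- and γδint. With the B-cell level subtracted it made up 24.3 and 24.4% in the γδ- cells, so the fall along that branch did not hold. In the γδ+ cells it then made up 27.8 and 30.6%, beside 19.2% in DN3a. Tcrg-C2 had its highest share in DN4 γδ- (53.2%) and its lowest in DN4 γδ+ (38.5%). Tcrg-C1 lay between 25.8 and 32.2% and Tcrg-C3 between 0.0866 and 0.243%. These shares compare UMIs of 3' ends, each counted once whatever the length of the transcript, and they are set side by side between libraries and not as an order of the 4 genes.

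Each constant gene is preceded by its own V segments, and barcodes were therefore grouped by the V segment they held (at least 2 UMIs of 1 segment and none of the other 6). Barcodes were not thinned for this grouping. On the annotation, Tcrg-C2 is the first constant gene behind Trgv2 on its strand (29 kb), Tcrg-C4 behind Tcrg-V1 (4.1 kb) and Tcrg-C1 behind Tcrg-V4 (28.6 kb). Barcodes with Tcrg-V1 had 51.9% Tcrg-C4 (49.6 to 54.2%, 110 barcodes) in DN3b γδ+ and 55.1% (51.8 to 58.3%, 67 barcodes) in DN4 γδ+, whereas those with Trgv2 had 21.7% (3197 barcodes) and 25.3% (1682 barcodes). Barcodes with Trgv2 had 49.5 and 44.7% Tcrg-C2 in these libraries, and those with Tcrg-V4 had 40.6% (29 barcodes) and 45.1% (61 barcodes) Tcrg-C1. In each of these 6 cases the gene downstream of the segment had its highest share in the barcodes of that segment, among these 3 segments. The same held in DN3a, the γδ- branch and the Lat-KO libraries, with as few as 3 barcodes of a segment (Tcrg-V4 in Lat-KO γδint). Barcodes with Tcrg-V1 had 43.3% Tcrg-C4 in DN3b γδ- (78 barcodes), and those with Tcrg-V4 had 47.9% Tcrg-C1 in DN3a (45 barcodes). The match was thus not particular to the γδ+ libraries. The other γ genes were still present in these barcodes: those with Tcrg-V1 in DN4 γδ+ had 26% Tcrg-C1 and 18.8% Tcrg-C2. Barcodes grouped by Trgv2 made up 25.9 and 19.3% of the thymocyte barcodes of DN3b γδ+ and DN4 γδ+, and those grouped by Tcrg-V1 and Tcrg-V4 under 1%.

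**Figure D5:**
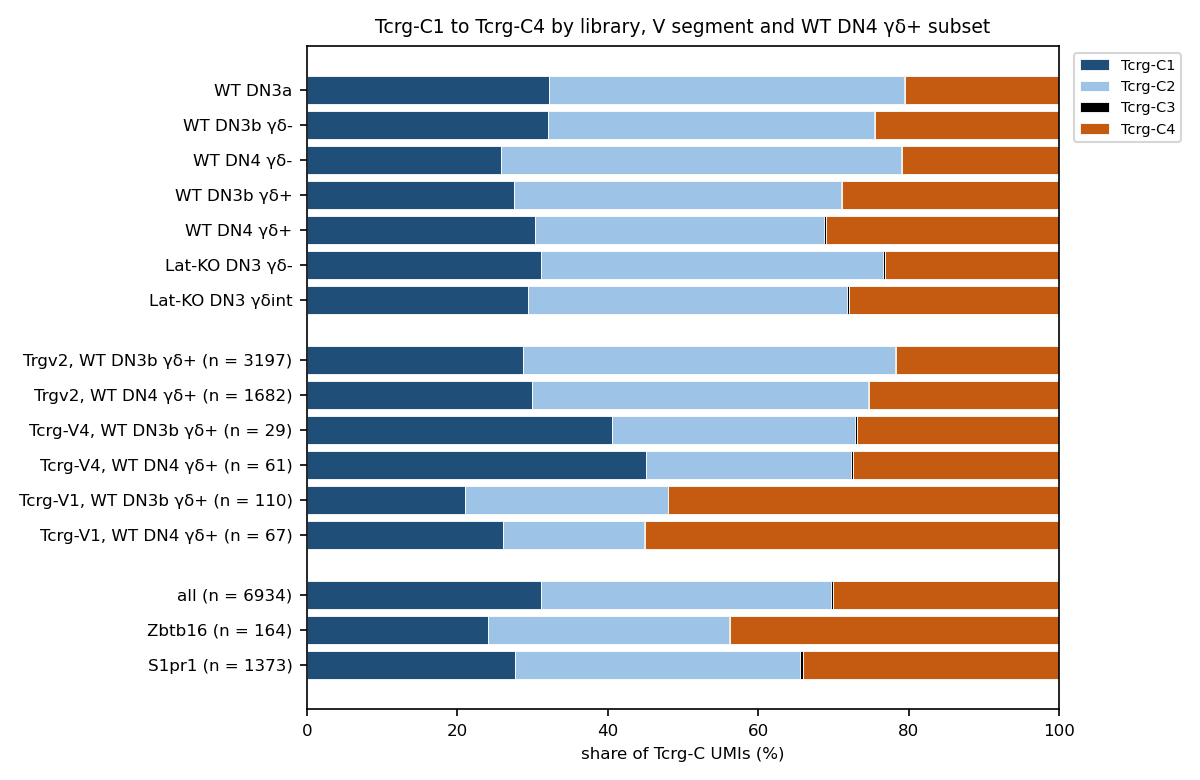
Share of Tcrg-C UMIs (%) from Tcrg-C1, Tcrg-C2, Tcrg-C3 and Tcrg-C4, by library (top), by V segment in the γδ+ libraries (middle) and by subset of WT DN4 γδ+ (bottom); n is the number of barcodes. Tcrg-C4 made up 20.5 to 31% by library, and 51.9 and 55.1% in barcodes with Tcrg-V1.

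Constant-region genes also differed within DN4 γδ+ cells. At 4000 UMIs, 164 of 6934 barcodes held a UMI of Zbtb16, the gene of the innate-like regulator PLZF, and 1373 held S1pr1, the receptor used for thymic egress, with 29 in both groups. Trdc measured 1570.1 CPM (1476 to 1669) in barcodes with Zbtb16, 2259.8 in those with S1pr1 and 2115 over all 6934. Trbc1 measured 1503, 2904 and 2915 CPM in these groups, and Trbc2 2448, 3191 and 3289.8. These 2 groups cover a minority of the library and rest on a single UMI. Among its 57 B cells at this depth, 1 held Zbtb16 (1.75%, 0.0444 to 9.39%) beside 2.37% of thymocyte barcodes (2.02 to 2.75%), so that the Zbtb16 share was not distinct from the background. S1pr1 was held by 24 (42.1%) of the B cells, which have a level of their own (112 to 171 CPM over the libraries), beside 19.8% of thymocyte barcodes. In the DN3a, γδ- and Lat-KO libraries S1pr1 stayed at or under 0.501 CPM in thymocyte barcodes. The part of free RNA in either group was not tested. Trac measured 80.8 CPM (60.5 to 106) with Zbtb16, 87.4 (79.8 to 95.6) with S1pr1 and 81.7 (78.3 to 85.1) over all. Tcrg-C4 made up 43.7% (40.5 to 47%) of the γ UMIs with Zbtb16, 34.1% (33 to 35.2%) with S1pr1 and 30% (29.6 to 30.5%) over all, and Tcrg-C1 24.1, 27.6 and 31.2%.

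Cycling cells had lower levels of the γ genes than cells without cycling UMIs in the same library. In DN3a, Tcrg-C2 measured 425 CPM (365 to 491) in 106 cycling barcodes and 713 (702 to 724) in 5435 barcodes without a cycling UMI. In DN3b γδ- the values were 271 and 364, in DN4 γδ- 138 and 239, and in Lat-KO γδint 623 and 853. In the γδ branch the gap of Tcrg-C2 was smaller, with 471 and 532 in DN3b γδ+ and 489 and 581 in DN4 γδ+. Tcrg-C1 was likewise lower in the cycling barcodes of all 7 libraries. For Tcrg-C1 the gap in DN4 γδ+ (347 and 484) was about as large as in DN3a (340 and 478). Tcrg-C4 was lower in 6 of them by intervals that did not overlap, except that in DN3b γδ+ the gap was small (316 and 342), and in DN4 γδ+ the intervals overlapped (440.3 and 443).

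Trdc was also lower in cycling barcodes in 6 of the 7 libraries, with intervals that overlapped in Lat-KO γδ-, and measured about the same in DN3a. In DN4 γδ+ it measured 1378 CPM in cycling barcodes (1345 to 1412) and 2303 in those without a cycling UMI (2278 to 2328), and in DN3b γδ+ 1028 and 1278, whereas in DN3a it measured 299.5 (249.7 to 356) and 297. In the γδ- branch Trdc measured 206 and 244 at DN3b and 228 and 287 at DN4, and in Lat-KO γδ- and γδint 45.4 and 56.3, and 67.3 and 87.8. Trbc1 differed in direction between libraries. It was lower in the cycling barcodes of both branches (1284 and 1441 in DN3b γδ-, 1544 and 1759.8 in DN4 γδ-, 1828 and 2287 in DN3b γδ+, 2301 and 3048 in DN4 γδ+) and higher in those of DN3a (1540.1 and 1298), Lat-KO γδ- (1273 and 755) and Lat-KO γδint (1193 and 816). Trbc2 shared the direction of Trbc1 in DN3b γδ+ (2521 and 2732), DN4 γδ+ (2852 and 3341), Lat-KO γδ- (1879 and 1448) and Lat-KO γδint (1951 and 1572). In DN3a (1995 and 1945) and DN3b γδ- (2133 and 2163) its intervals overlapped. In DN4 γδ- Trbc2 measured 2503 in cycling barcodes and 2393 in the 331 barcodes without a cycling UMI. The intervals of all these groups pool UMIs and leave out the spread between barcodes. Of all DN4 γδ- barcodes, 25% held 6 or fewer Trbc2 UMIs and 25% held 13 or more. The direction of Trbc2 in DN4 γδ- was therefore not settled. Both groups were read at 4000 UMIs per barcode, and the part of total RNA content in these values was not tested.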

How the data were processed

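Sorted thymocytes were profiled by droplet 3' RNA sequencing, and the authors deposited UMI counts per gene and barcode for each library, made with Cell Ranger (version 5.0.1 in the submitters' processing notes, 4.0.0 in the matrix headers) on an mm10 reference to which they had added the Trdc reporter allele. R 3.6.3 and Seurat 3.1.5 are also named in those notes. The counts are not normalized.

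Barcodes entered with 200 or more genes and a mitochondrial share of UMIs no higher than 15%. Those with at most 1 UMI of Cd79a, Cd79b and Ms4a1 were taken as thymocytes, and those with at least 10 such UMIs, and at least 4 times their Cd3d, Cd3e and Cd3g UMIs, as B cells. No doublet caller was run; an alternative left out the 8% of barcodes with the most UMIs. Levels are summed UMIs per 1000000. Reporter UMIs were added to Trdc. Shares of barcodes with a UMI, and the cycling and DN4 γδ+ groups, were read after thinning each barcode to 4000 UMIs. The Trbc1 share per barcode, the Tcrg-C composition by library and the V-segment groups used all UMIs, so depth differed between libraries. The 10 cycling genes and the 9 partner genes were lists, and DN4 γδ+ barcodes were grouped by a UMI of Zbtb16 or S1pr1. Other groupings of these barcodes are not reported here. All members, lists and limits were chosen with earlier results of these data known. The genes named were the members, the partner list and the 3 nearest profiles of each member. The 9 comparisons share libraries and are not independent. With 1 library per group no test was possible, and 95% intervals cover counting error only. The ratio code was tested on simulated data. Alternatives were TMM scaling, scaling without ribosomal-protein and mitochondrial genes, subtraction of the B-cell level, other limits on barcodes, genes, fold and depth. Sequences were read from the GENCODE vM21 transcripts. The scripts ran in Python 3.11.15 with scipy 1.17.1 for intervals and Biopython 1.88 for alignments.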

Additional observations from a re-analysis of the deposited data

Results flagged for a closer look

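The γ genes moved in opposite directions in the branches from DN3b to DN4. Tcrg-C1 had a log2 ratio of -1.49 in the γδ- branch and 0.52 in the γδ+ branch, Tcrg-C2 of -0.88 and 0.21, and Tcrg-C4 of -1.41 and 0.49. With 1 library per subset the difference between the branches was not tested. Under TMM scaling Tcrg-C2 in the γδ+ branch measured -0.10, so for this gene the opposite direction depended on the scaling.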

How the results depend on the processing

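No ratio of a constant-region gene that was past 2-fold changed sign under the alternatives run, and 20 of the 22 such ratios of the 7 genes counted stayed past 2-fold with TMM scaling. The number of genes past the limit went from 4 to 2 with TMM in DN3b γδ- over DN3a and from 2 to 4 in Lat-KO γδint over DN3b γδ+. A 1.5-fold limit gave 5 in DN3b γδ+ over DN3b γδ-, 2 in DN4 γδ+ over DN3b γδ+, 4 in Lat-KO γδ- over DN3a and 6 in Lat-KO γδint over DN3b γδ+. In DN4 γδ+ over DN3b γδ+ the number was 1 without ribosomal-protein and mitochondrial genes in the scaling and 2 with the B-cell level subtracted. In Lat-KO γδint over Lat-KO γδ- it was 0 among barcodes with no B-cell marker UMI. The other 72 alternative counts lay within 1.5 times the reported one. The share of barcodes with Trdc and a Trbc gene together moved with depth: in DN3b γδ- it was 30.2% at 2000 UMIs, 79.99% without thinning and 20.7% with 2 UMIs of each required, and in DN3b γδ+ 81.5, 97.7 and 83.0%. No paired analysis was possible because each group had 1 library, and for the same reason no replicate could be left out. Limiting the Trbc comparison to an 80% share of 1 gene, an alternative chosen after seeing the data, gave 29.1 to 41.1% of barcodes with mainly 1 gene. The share of all genes past 2-fold, 2.19 to 34.2% over the 9 comparisons, was 15.4 to 46.3% with every gene that had a UMI in both libraries and 1.48 to 28.4% with a mean of at least 20 CPM.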
